A study of Mus musculus with 18 samples.

Results

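The genes described here encode the nuclear subunits and named assembly factors of the mitochondrial respiratory chain, measured in mice that lack Ppt1 and in wild-type mice. Members were all probe sets whose 1 platform symbol began with Nduf, Sdh, Uqcr, Cox4i, Cox5, Cox6, Cox7, Cox8 or Atp5, with Ndufs5 left out. This gave 184 probe sets of 93 genes among 45101 probe sets on the array, of which 34958 had 1 symbol. A filter on low signal kept 163 members of 90 genes for testing. The 21 members that did not pass it were dim probe sets, and for Ndufb4, Cox4i2 and Cox7b2 no other probe set was left.

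Ppt1 knockout and wild-type samples were profiled on 18 Affymetrix mouse arrays, 1 per sample, with 3 arrays for each genotype at 3, 5 and 8 months of age. Every group held 1 male and 2 females, except that the knockout at 8 months held 2 males and 1 female. Ppt1 is the gene of palmitoyl-protein thioesterase 1, which works in the lysosome and whose loss causes infantile neuronal ceroid lipofuscinosis in people. The labels name the source as both brain and cochlea, and neither the strain, the design of the knockout allele, nor whether the 3 samples of a group came from separate mice is given in the sources used here. Spread between samples, on which the p-values rest, may thus be technical in part. Comparisons of knockout with wild type ask how the absence of Ppt1 goes with expression at each age.

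The respiratory chain sits in the inner mitochondrial membrane. Complex I takes electrons from NADH and complex II from succinate, and both pass them through ubiquinone to complex III, which hands them to cytochrome c and complex IV, where oxygen is reduced. Complexes I, III and IV pump protons, and complex V, the ATP synthase, uses the proton gradient to make ATP. Most subunits are encoded in the nucleus and a few in mitochondrial DNA. Neurons depend heavily on this pathway.

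Over the ages, 30 of the 163 tested members (18.4%) were lower in the knockout and 0 were higher. Among all tested probe sets 6.02% were lower and 6.62% higher. The decreases of the members were small, from 0.10 to 0.40 on the log2 scale, and were found in all 5 complexes. By age, 0 members passed at 3 months, 3 at 5 months (1.84%) and 22 at 8 months (13.5%). Of all tested probe sets 0.955%, 2.2% and 11.6% passed at these ages, in either direction. The promoters of 4 of the genes that fell are shown before the values: Uqcr10, which had the largest decrease, and the 3 genes that fell and whose window held a motif of a factor known to act at respiratory genes, namely nuclear respiratory factor NRF-1, GABP or YY1. Each is the 250 bases before the gene's start, read 5′ to 3′ on the strand of the gene, from RefSeq on GRCm38.p6, with a motif match in capitals.
Uqcr10 (chr11:4704345-4704594, minus strand): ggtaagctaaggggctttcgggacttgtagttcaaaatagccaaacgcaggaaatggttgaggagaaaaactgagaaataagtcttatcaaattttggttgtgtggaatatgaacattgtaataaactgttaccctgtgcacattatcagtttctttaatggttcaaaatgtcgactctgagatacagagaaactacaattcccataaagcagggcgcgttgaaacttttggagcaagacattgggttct
Ndufa8 (chr2:36049339-36049588, minus strand): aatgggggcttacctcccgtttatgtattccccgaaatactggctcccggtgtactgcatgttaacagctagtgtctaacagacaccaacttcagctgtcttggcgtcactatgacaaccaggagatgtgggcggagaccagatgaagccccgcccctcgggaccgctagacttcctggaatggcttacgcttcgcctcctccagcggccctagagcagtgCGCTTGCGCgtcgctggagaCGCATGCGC
Ndufb6 (chr4:40279422-40279671, minus strand): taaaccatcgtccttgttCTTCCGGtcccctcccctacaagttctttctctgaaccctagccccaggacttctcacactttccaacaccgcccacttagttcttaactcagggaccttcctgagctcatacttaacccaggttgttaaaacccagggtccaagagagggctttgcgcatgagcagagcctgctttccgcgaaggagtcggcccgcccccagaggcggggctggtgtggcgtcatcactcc
Uqcr11 (chr10:80406822-80407071, minus strand): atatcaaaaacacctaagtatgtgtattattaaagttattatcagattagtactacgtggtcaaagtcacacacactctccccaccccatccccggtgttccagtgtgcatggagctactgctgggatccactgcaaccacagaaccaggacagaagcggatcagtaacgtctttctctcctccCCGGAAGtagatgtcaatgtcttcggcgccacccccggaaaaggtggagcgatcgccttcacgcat
The capitals mark 2 NRF-1 matches on the reverse strand in Ndufa8, a GABP match on the reverse strand in Ndufb6 and one on the forward strand in Uqcr11. The GABP matches began at -232 and -66 from the start of Ndufb6 and Uqcr11. Motifs were searched as exact letters on both strands, GCGCANGCG for NRF-1, CCGGAAG for GABP and AAGATGGC for YY1. The RefSeq table held 82 promoters of 77 of the 93 member genes. Of these promoters 17.1% held the NRF-1 letters, against 5.16% of all 32851 promoters, and 19.5% held the GABP letters, against 6.91%. The YY1 letters stood in 1.22% of the member promoters, against 1.56% of all. Among the 19 promoters of 18 genes that fell over the ages, 5.26% held the NRF-1 letters, 10.5% the GABP letters and 0.0% the YY1 letters, that is 1, 2 and 0 promoters. A match is a description of letters and not evidence of binding.

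The labels were checked on Ppt1 itself, whose brightest probe set had a signal of 12.9 ± 7.66 on knockout arrays and 595 ± 29.3 on wild-type arrays (SD, n = 9 each). Ndufs5, a complex I gene that the rule leaves out, had 1130 ± 90.3 on knockout arrays and 2510 ± 95.4 on wild-type arrays. It is in none of the counts of members, and how its difference came about was not tested. Array medians lay between 43.17 and 46.09, and no 2 arrays held identical values. All 13 neuron, 8 astrocyte and 6 oligodendrocyte markers stood above background on all 18 arrays, whereas 3 of 12 markers of the cochlea and inner ear did, so the RNA had the markers of brain tissue and few of cochlea. The third knockout array at 8 months stood apart from the other knockout arrays of that age: its value on the leading principal component was 9.9, against 50.7 and 45.6. On that array the summed signal of 9 muscle markers was 866, against 241 and 228 on the other knockout arrays at 8 months and 224 to 257 in the wild type at 8 months. The third wild-type array at 5 months had a median log2 difference over the members of -0.074 from the wild-type mean of its age, against 0.024 and 0.057 on the other wild-type arrays of that age, and a ratio of 5′ to 3′ actin signal of 0.412, against 0.497 and 0.499. Without it, 39 members were lower over the ages and 4 at 5 months. Counts at each age are therefore also given without single arrays. The matching shares of all tested probe sets are not given for these. Such counts thus do not tell a change in the members from one across the array.

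Over the ages, 18.4% of the tested members passed the threshold, all of them lower, while 12.6% of all 27022 tested probe sets passed, 6.02% lower and 6.62% higher (limma with Benjamini-Hochberg adjustment over all tested probe sets, threshold 0.05). The median log2 difference was -0.068 over the members and -0.013 over all tested probe sets, and 77.3% of members lay below 0, against 53.6% of all. With the dimmest 60% of the array left out, 21.2% of the 151 members that remained were lower, against 9.63% of all. The 30 decreases belonged to 22 genes on 12 chromosomes, and every 1 of the 30 stood above background on all 18 arrays. In 8 genes, Ndufb2, Ndufb5, Ndufb6, Ndufc1, Uqcr10, Uqcrc2, Cox8a and Atp5j2, 2 probe sets fell. Of the 16 genes that fell and had several tested probe sets, 11 had all of them below 0. With 1 probe set per gene and the p-values adjusted over genes, 17 of 90 member genes were lower (18.9%), against 16.2% of all genes called, 7.3% lower and 8.89% higher.

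**Figure D1:**
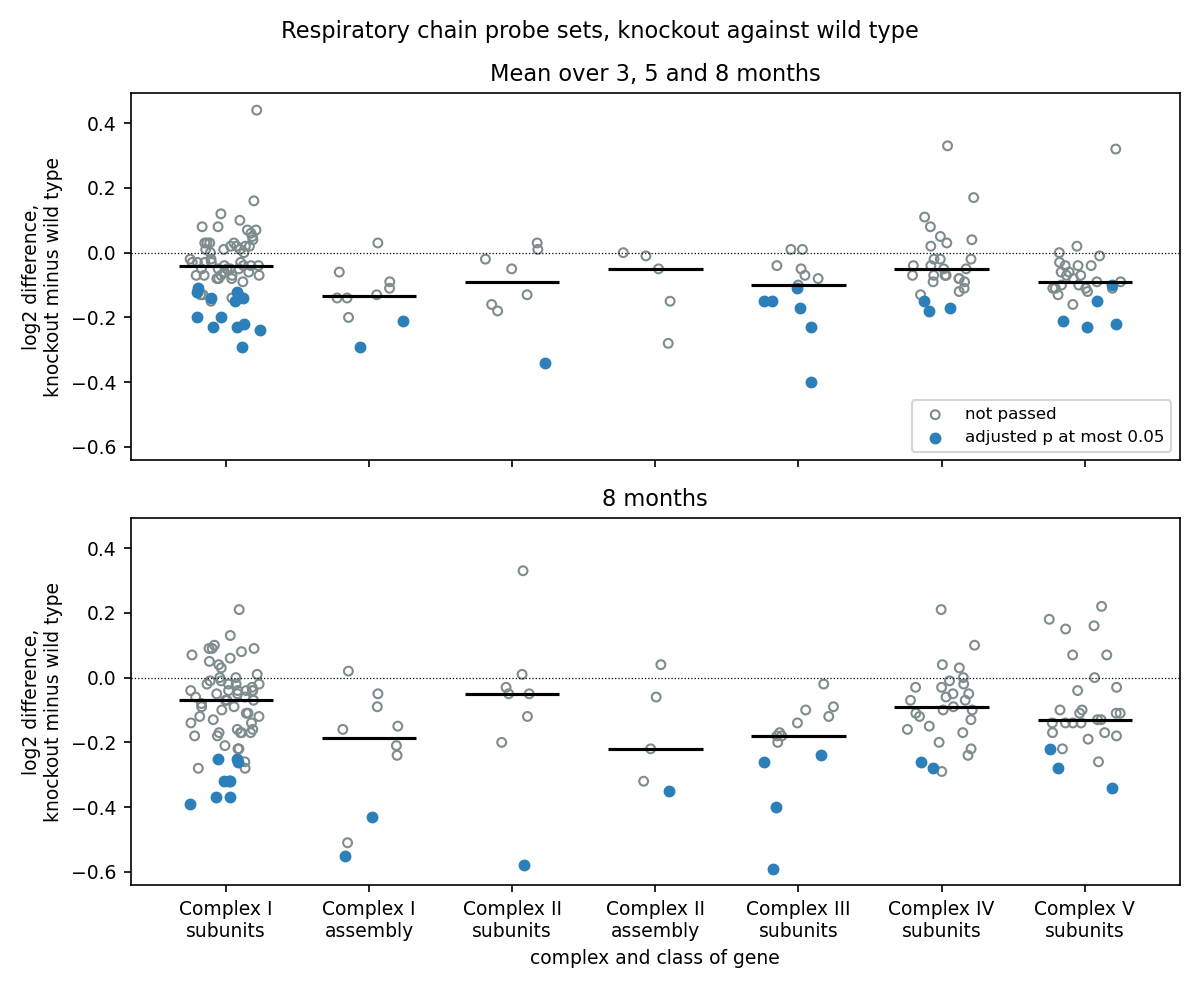
Each point is a tested probe set, placed by complex and class of gene, with its log2 difference of knockout minus wild type, averaged over the ages (upper panel) and at 8 months (lower panel); filled points had an adjusted p of at most 0.05 and bars are medians. The filled points all lie below 0, 30 in the upper panel and 22 in the lower.

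Complex I is the largest complex, with 69 tested probe sets of 34 subunit genes, and 13 of these probe sets fell over the ages. That was 18.8%, against 12.6% of all tested probe sets called in either direction, 6.02% lower. The counts go by symbol and so hold Ndufa4 and Ndufa4l2, 1 tested probe set each, although Ndufa4 is now known as a subunit of complex IV. All 13 were of accessory subunits, which surround the core and hold the complex together: 13 of 52 tested accessory probe sets, from 9 of 27 genes, with a median of -0.05. Of the core subunits, which carry the flavin and the iron-sulphur clusters, 0 of 16 probe sets of 6 genes passed and the median was 0.01. Their difference from the accessory subunits was not tested.

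Ndufb2, an accessory subunit of the membrane arm, had signals of 1590, 1570 and 1540 on knockout arrays and 1770, 1760 and 1780 on wild-type arrays at 3 months on its brightest probe set, 1448483_a_at. At 5 months it had 1650, 1760 and 1680 on knockout arrays and 1830, 1850 and 1790 on wild-type arrays, and at 8 months 1340, 1380 and 1680 on knockout arrays and 1870, 1810 and 1770 on wild-type arrays. All 9 knockout arrays lay below all 9 wild-type arrays before rounding. The decrease was -0.20 ± 0.04 on the log2 scale (SE, adjusted p = 0.00198), and its second probe set, 1416834_x_at, fell by 0.23 (-0.23 ± 0.05, adjusted p = 0.00232). Another, dim probe set of Ndufb2, 1442658_at, stood at 0.44 ± 0.16 and did not pass (adjusted p = 0.0731).

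Ndufa8, an accessory subunit on the intermembrane-space side whose promoter is shown above, had signals of 1420, 1440 and 1570 on knockout arrays and 1750, 1700 and 1610 on wild-type arrays at 3 months. At 5 months the signals were 1460, 1390 and 1420 on knockout arrays and 1720, 1740 and 1500 on wild-type arrays, and at 8 months 1380, 1250 and 1320 on knockout arrays and 1550, 1780 and 1600 on wild-type arrays. The genotypes did not overlap within any age. Its decrease over the ages was -0.24 ± 0.04 (SE, adjusted p = 0.000467).

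Ndufb6, a membrane-arm subunit, fell by more on 1434057_at, -0.29 ± 0.05 (adjusted p = 0.000569), than on its brighter probe set 1434056_a_at, -0.14 ± 0.04 (adjusted p = 0.016). On 1434057_at the signal was 1210 ± 85.4 on knockout arrays and 1480 ± 127 on wild-type arrays (SD, n = 9 each), and the genotypes overlapped at 5 months, where the third wild-type array read 1170. Ndufc1, also of the membrane arm, fell on both tested probe sets, by -0.22 ± 0.04 on 1416285_at (adjusted p = 0.00137) and -0.20 ± 0.04 on 1448284_a_at (adjusted p = 0.00136). Ndufab1, the mitochondrial acyl carrier protein, fell on its brightest probe set, 1428159_s_at, with -0.23 ± 0.05 (adjusted p = 0.00309), while another, 1428160_at, stood at 0.16 ± 0.09 (adjusted p = 0.311). The other accessory genes that fell, given to complete the count, were Ndufb5 (-0.15 and -0.14 on 2 probe sets), Ndufb8 (-0.12), Ndufa12 (-0.12) and Ndufa3 (-0.11). No other probe set of Ndufb8, Ndufa12 or Ndufa3 passed.

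The brightest complex I probe set, that of Ndufa13, averaged 4200 ± 293 on knockout arrays and 4330 ± 338 on wild-type arrays (SD, n = 9 each) and did not pass (-0.04 ± 0.04, adjusted p = 0.586). Among the core subunits, Ndufv1, which binds NADH and flavin, had signals of 1610, 1630 and 1580 on knockout arrays and 1560, 1400 and 1560 on wild-type arrays at 3 months. At 8 months the order was turned, with 1490, 1610 and 1560 on knockout arrays and 1710, 1730 and 1690 on wild-type arrays, and its mean over the ages was 0.00 ± 0.04 (adjusted p = 0.961). The brightest probe sets of Ndufs1, Ndufs3, Ndufs7, Ndufs8 and Ndufv2 stood at -0.05, -0.06, 0.05, -0.05 and 0.03 over the ages, and none passed. At 8 months 1 core probe set passed, 1434579_x_at of the iron-sulphur subunit Ndufs8, at -0.25 ± 0.07 (adjusted p = 0.0215), while the other 5 probe sets of Ndufs8 did not, at -0.21 to -0.09.

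**Figure D2:**
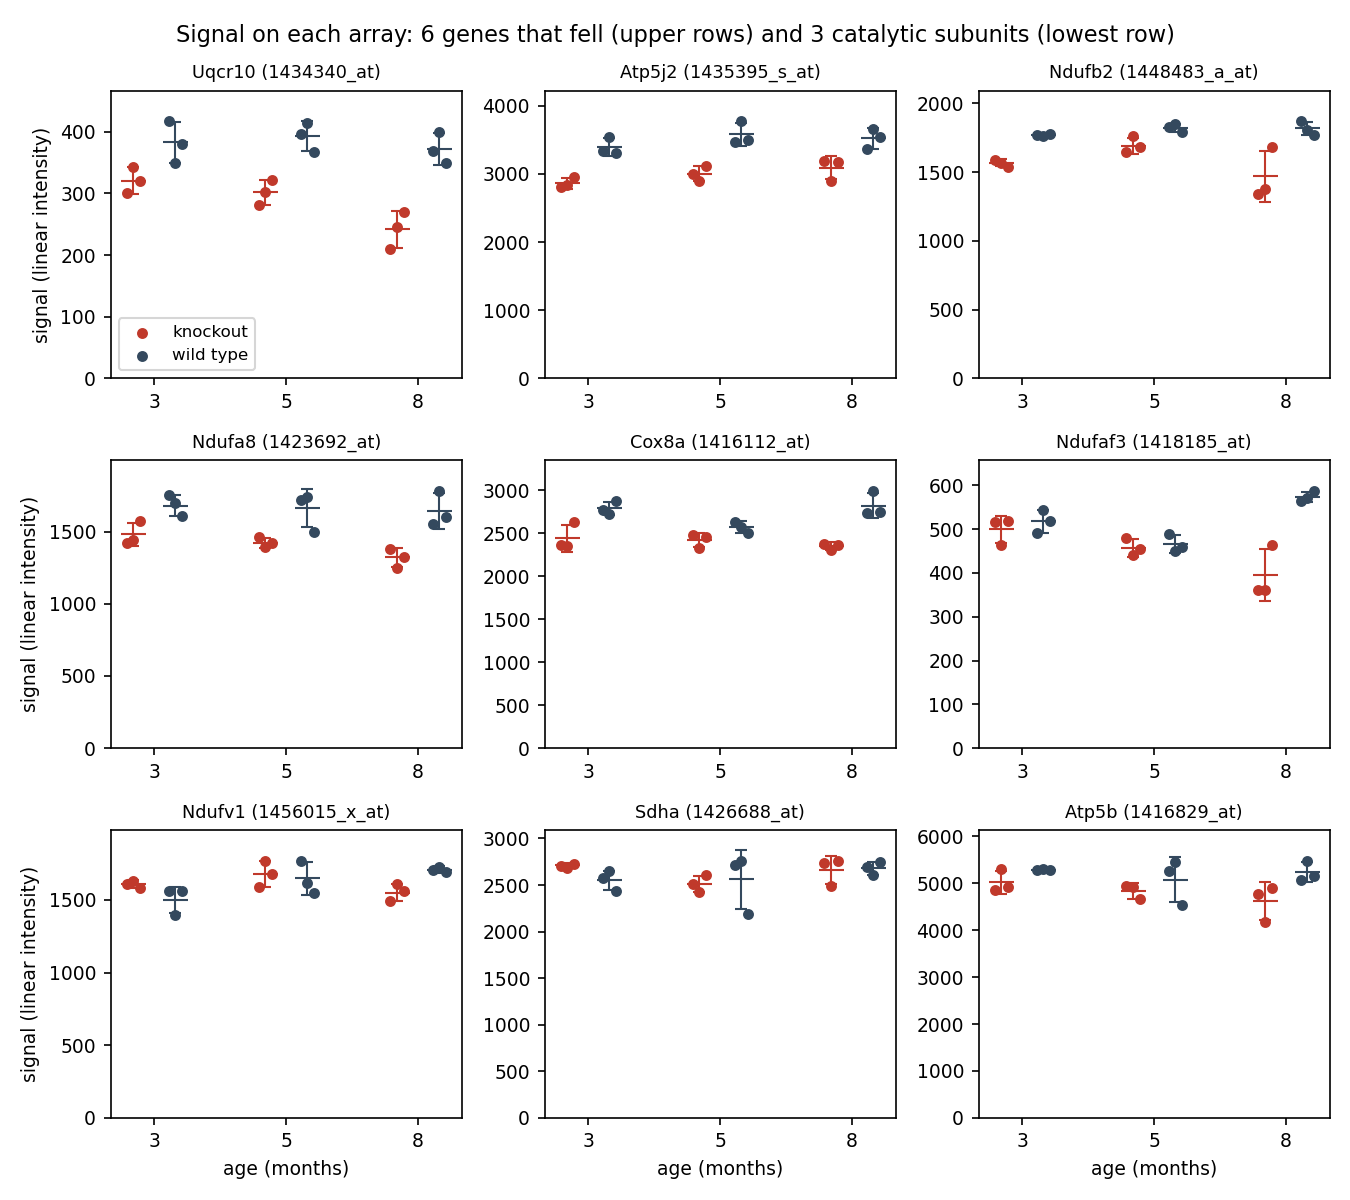
Signal on a linear intensity scale on each of the 18 arrays by age in months, knockout left of wild type, with the mean and SD of 3 arrays. Each gene is shown on its brightest probe set, except Uqcr10, which is shown on 1434340_at, its probe set with the largest decrease. The brightest probe set of Uqcr10 did not pass over the ages. On the probe sets shown for Uqcr10, Atp5j2 and Ndufb2 all knockout arrays lie below all wild-type arrays, whereas Ndufv1, Sdha and Atp5b overlap at 3 or 5 months.

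Complex I also has assembly factors, which help to build it and are not part of the finished complex. Of 10 probe sets of 8 genes, 2 fell over the ages (20%, against 6.02% of all tested probe sets lower), and the median was -0.133. Ndufaf3 had signals of 517, 464 and 518 on knockout arrays and 492, 543 and 519 on wild-type arrays at 3 months. At 5 months it had 480, 440 and 454 on knockout arrays and 489, 450 and 460 on wild-type arrays, and at 8 months 360, 362 and 464 on knockout arrays and 564, 572 and 587 on wild-type arrays. The genotypes overlapped at 3 and 5 months and were apart at 8 months. The log2 difference of Ndufaf3 at 3, 5 and 8 months was -0.05 ± 0.09, -0.02 ± 0.09 and -0.55 ± 0.09 (SE, adjusted p = 0.92, 0.943 and 0.000497), and it was -0.21 ± 0.05 over the ages (adjusted p = 0.0104). Ndufaf2 showed 220, 172 and 217 on knockout arrays and 267, 264 and 292 on wild-type arrays at 8 months, a decrease of -0.43 ± 0.11 (adjusted p = 0.0135), and did not pass over the ages (adjusted p = 0.195). Ndufaf6 fell over the ages, with -0.29 ± 0.09 (adjusted p = 0.0474), a call that was lost in 16 of the other settings tried.

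Complex II, succinate dehydrogenase, also belongs to the citric acid cycle. Sdha, its flavoprotein and brightest member, averaged 2630 ± 124 on knockout arrays and 2600 ± 182 on wild-type arrays (SD, n = 9 each; 0.01 ± 0.04, adjusted p = 0.896). The iron-sulphur subunit Sdhb stood at -0.05 ± 0.04 (adjusted p = 0.516) and the membrane anchor Sdhd at -0.13 ± 0.06 without passing. Of the 8 probe sets 1 fell (12.5%, against 12.6% of all tested probe sets called in either direction, 6.02% lower). This was 1435986_x_at of Sdhc, the other membrane anchor, at -0.34 ± 0.09 (adjusted p = 0.011). Its signals at 8 months were 328, 206 and 224 on knockout arrays and 339, 442 and 369 on wild-type arrays. The brighter probe set of Sdhc, 1448630_a_at, did not pass: it averaged 883 ± 35.3 on knockout arrays and 865 ± 34.2 on wild-type arrays (0.03 ± 0.04, adjusted p = 0.642). None of the 5 tested probe sets of complex II assembly factors passed over the ages, and at 8 months Sdhaf2, which attaches flavin to the enzyme, stood at -0.35 ± 0.11 (adjusted p = 0.0469), a call lost in 18 other settings.

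Complex III, the cytochrome bc1 complex, had 6 decreases among 13 tested probe sets of 8 genes, with a median of -0.097. That was 46.2%, against 12.6% of all tested probe sets called in either direction, 6.02% lower. Uqcr10, a small subunit, had the largest decrease of all members on 1434340_at. Its signals were 300, 343 and 321 on knockout arrays and 417, 350 and 381 on wild-type arrays at 3 months, and 282, 302 and 322 on knockout arrays and 396, 415 and 368 on wild-type arrays at 5 months. At 8 months they were 210, 245 and 270 on knockout arrays and 369, 399 and 349 on wild-type arrays. All knockout arrays lay below all wild-type arrays, and the difference over the ages was -0.40 ± 0.06 (SE, adjusted p = 8.45e-05). A second probe set, 1434341_x_at, fell by 0.23 (-0.23 ± 0.05, adjusted p = 0.00138). The brightest probe set of Uqcr10, 1424364_a_at, averaged 1200 ± 31.2 on knockout arrays and 1260 ± 60.2 on wild-type arrays (SD, n = 9 each) and did not pass (-0.07 ± 0.04, adjusted p = 0.254), so the size of the change depended on the probe set.

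Uqcr11, another small subunit of complex III, averaged 1490 ± 91.7 on knockout arrays and 1680 ± 49.5 on wild-type arrays (SD, n = 9 each), a decrease of -0.17 ± 0.04 (adjusted p = 0.00408). Uqcrq, the ubiquinone-binding small subunit, fell by 0.15 (-0.15 ± 0.04, adjusted p = 0.0181), and no other probe set of Uqcrq passed. Of the larger subunits, the core protein Uqcrc2 fell on both probe sets, -0.15 ± 0.04 (adjusted p = 0.00694) and -0.11 ± 0.04 (adjusted p = 0.0466). The core protein Uqcrc1 at -0.10 ± 0.04 (adjusted p = 0.0946) and the Rieske iron-sulphur protein Uqcrfs1 at -0.05 ± 0.05 (adjusted p = 0.578) did not pass. Uqcrb, the brightest member of the complex, averaged 7910 ± 454 on knockout arrays and 7850 ± 493 on wild-type arrays (SD, n = 9 each; adjusted p = 0.878).

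Complex IV, cytochrome c oxidase, had 3 decreases among 29 tested probe sets of 15 genes and a median of -0.049. That was 10.3%, against 12.6% of all tested probe sets called in either direction, 6.02% lower. Cox8a, the small subunit found in most tissues, had signals of 2360, 2350 and 2630 on knockout arrays and 2770, 2720 and 2870 on wild-type arrays at 3 months. At 5 months the signals were 2480, 2330 and 2450 on knockout arrays and 2630, 2570 and 2500 on wild-type arrays, and at 8 months 2380, 2300 and 2360 on knockout arrays and 2730, 2990 and 2750 on wild-type arrays. Within each age the knockout arrays were the lower ones. The decrease was -0.18 ± 0.03 (SE, adjusted p = 0.00135) on 1416112_at and -0.17 ± 0.05 (adjusted p = 0.0201) on 1448222_x_at. Cox7a2 fell on 1416971_at, -0.15 ± 0.04 (adjusted p = 0.00877), while its brighter probe set stood at -0.09 ± 0.04 (adjusted p = 0.159). Cox6a1, the brightest member, averaged 7050 ± 398 on knockout arrays and 7380 ± 413 on wild-type arrays (SD, n = 9 each; -0.07 ± 0.04, adjusted p = 0.29), and Cox4i1 stood at -0.05 ± 0.03 (adjusted p = 0.409).

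Several complex IV subunits have forms that are made mainly in muscle or testis. Cox8b, the muscle form, had signals of 26.0, 38.1 and 47.1 on knockout arrays and 22.6, 38.8 and 25.7 on wild-type arrays at 8 months, and 0.33 ± 0.17 over the ages (adjusted p = 0.212). Cox6a2, another muscle form, read 70.3, 81.2 and 141 on knockout arrays and 86.3, 117 and 127 on wild-type arrays at 8 months. Both were highest on the third knockout array, the one with raised muscle markers, among the knockout arrays of that age. The muscle form Cox7a1 was lowest on that array, with 82.6, 79.4 and 51.8 on knockout arrays and 72.7, 63.4 and 59.4 on wild-type arrays. Over the ages Cox6a2 stood at 0.04, Cox7a1 at -0.11, the testis forms Cox6b2 at 0.17 and Cox8c at -0.04, and Ndufa4l2, by symbol in the complex I counts, at 0.12, and none passed. Ndufa4, which is in the complex I counts by its symbol, stood at -0.05 ± 0.04 (adjusted p = 0.432).

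**Figure D3:**
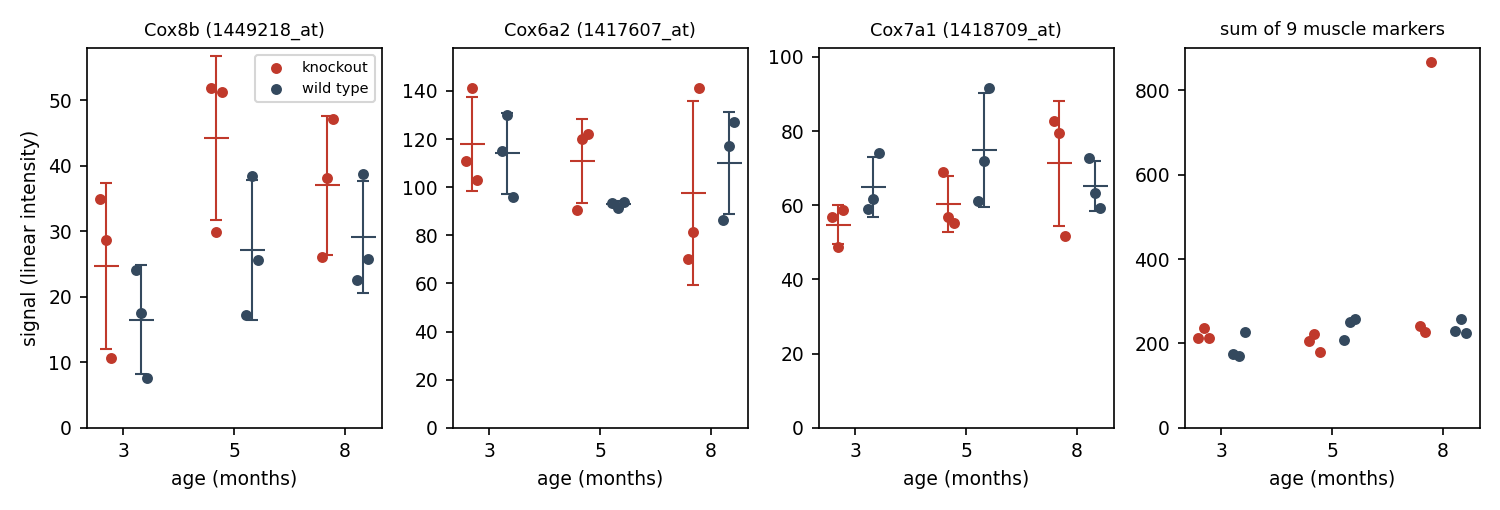
Signal (linear intensity) of the muscle forms Cox8b, Cox6a2 and Cox7a1 on each array by age in months, knockout left of wild type, with mean and SD of 3 arrays, and the summed signal of 9 muscle markers. The sum reaches 866 on 1 knockout array at 8 months and lies between 170 and 258 on the other 17 arrays.

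Complex V had 5 decreases among 29 tested probe sets of 17 genes and a median of -0.09. That was 17.2%, against 12.6% of all tested probe sets called in either direction, 6.02% lower. Atp5j2, subunit f of the membrane part, had signals of 2810, 2840 and 2950 on knockout arrays and 3330, 3540 and 3300 on wild-type arrays at 3 months on 1435395_s_at. At 5 months the signals were 3000, 2890 and 3110 on knockout arrays and 3460, 3770 and 3500 on wild-type arrays, and at 8 months 3190, 2890 and 3180 on knockout arrays and 3360, 3660 and 3540 on wild-type arrays. All knockout arrays were below all wild-type arrays, and the log2 difference was -0.24, -0.25 and -0.18 at 3, 5 and 8 months. The decrease was -0.23 ± 0.03 (SE, adjusted p = 0.00012) on this probe set and -0.22 ± 0.04 (adjusted p = 0.000214) on 1416269_at, where the genotypes did not overlap either. Another tested probe set of Atp5j2, 1443495_at, did not pass.

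Atp5g1, 1 of the genes for the ring that turns as protons pass, averaged 1130 ± 69.8 on knockout arrays and 1320 ± 97.3 on wild-type arrays (SD, n = 9 each), a decrease of -0.21 ± 0.05 (adjusted p = 0.00432), while its dim probe set 1444874_at stood at 0.32 ± 0.17 (adjusted p = 0.245). The other ring genes did not pass: Atp5g3 stood at -0.03 ± 0.04 (adjusted p = 0.668) and Atp5g2 at -0.07 ± 0.05. The central-stalk subunit Atp5d fell by 0.15 (-0.15 ± 0.04, adjusted p = 0.0143) and the peripheral-stalk subunit Atp5o by 0.10 on 1416278_a_at (-0.10 ± 0.03, adjusted p = 0.0377). No other probe set of Atp5d or Atp5o passed over the ages. Atp5b, the catalytic subunit, averaged 4830 ± 303 on knockout arrays and 5200 ± 281 on wild-type arrays (SD, n = 9 each) and did not pass (-0.11 ± 0.04, adjusted p = 0.0724). Atp5a1, its partner in the catalytic head, stood at -0.07 ± 0.04 (adjusted p = 0.313).

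At 3 months 0 of the 163 members passed in limma, against 0.955% of all tested probe sets, 0.274% lower and 0.681% higher. At an unadjusted p under 0.05 there were 14 lower members (8.59%, against 4.4% of all) and 5 higher ones (3.07%, against 5.4%), and the smallest adjusted p was 0.0558, that of Atp5j2. The median over the members was -0.053, against 0.006 over all tested probe sets. At 5 months 3 members were lower and 0 higher, against 2.2% of all tested probe sets called, 0.566% lower and 1.64% higher: Atp5j2 at -0.25 ± 0.06 (adjusted p = 0.0233), Ndufb6 on 1434056_a_at at -0.27 ± 0.06 (adjusted p = 0.0262) and Atp5o on 1437164_x_at at -0.53 ± 0.10 (adjusted p = 0.00435). This Atp5o probe set had 819, 654 and 838 on knockout arrays and 1070, 1160 and 1110 on wild-type arrays at 5 months. At 8 months it had 979, 856 and 965 on knockout arrays and 900, 707 and 853 on wild-type arrays, a difference of 0.16 ± 0.11 (adjusted p = 0.354). The count at 5 months became 0 without the second knockout array of that age, 1 without the first knockout array or without the first or second wild-type array of that age, and 6 without the third knockout array at 8 months.

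At 8 months 22 members of 19 genes were lower and 0 were higher, 13.5% of those tested, against 11.6% of all tested probe sets, 5.91% lower and 5.74% higher. The median was -0.11 over the members and -0.023 over all, and 81.6% of members lay below 0, against 53.2% of all. By complex, the decreases numbered 9 of 69 probe sets in complex I, 1 of 8 in complex II, 4 of 13 in complex III, 2 of 29 in complex IV and 3 of 29 in complex V, with 2 of 10 and 1 of 5 among the assembly factors of complexes I and II. Complex III had a median of -0.177, and all 13 of its tested probe sets lay below 0. The count was 6 without the second knockout array at 8 months, 37 without the third and 13 without the first wild-type array of that age. On the third knockout array alone, the median log2 difference over the members was -0.048 from the wild-type mean of its age. It was -0.102 and -0.151 on the first and second.

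The largest decreases at 8 months were Uqcr10 on 1434340_at (-0.59 ± 0.10, adjusted p = 0.000828), Sdhc on 1435986_x_at (-0.58 ± 0.15, adjusted p = 0.0163) and Ndufaf3 as given above. Ndufab1 had signals of 1560, 1820 and 1730 on knockout arrays and 2380, 2110 and 2240 on wild-type arrays at 8 months, a decrease of -0.39 ± 0.09 (adjusted p = 0.00475). Its groups did not overlap at 8 months. At 5 months the third wild-type array lay among the knockout arrays, with 1600, 1860 and 1710 on knockout arrays and 2110, 1930 and 1620 on wild-type arrays. Ndufb2 (-0.37 ± 0.08 on 1416834_x_at), Ndufc1 (-0.37 ± 0.08), Atp5g1 (-0.34 ± 0.08), Ndufa8 (-0.32 ± 0.07) and Ndufb6 (-0.32 ± 0.09) also fell. Uqcrh, the hinge protein of complex III, passed at 8 months and not at 3 or 5 months on 1452133_at: it stood at 0.13 ± 0.07, 0.14 ± 0.07 and -0.24 ± 0.07 at 3, 5 and 8 months (adjusted p = 0.626, 0.439 and 0.04). The brighter probe set of Uqcrh, 1453229_s_at, did not pass at 8 months.

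**Figure D4:**
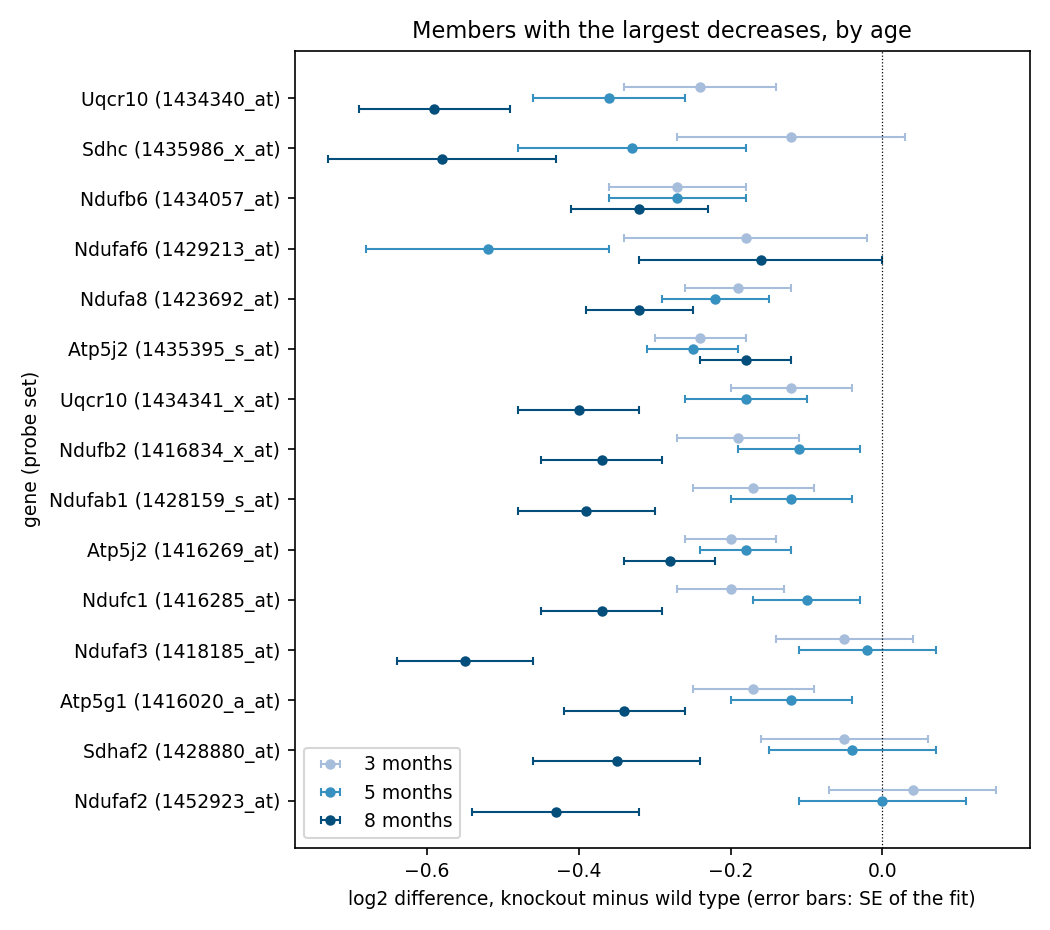
Log2 difference of knockout minus wild type (x axis, error bars are SE of the fit) at 3, 5 and 8 months for the probe sets with the largest decreases over the ages or at 8 months. Atp5j2 on 1435395_s_at had -0.24, -0.25 and -0.18 at 3, 5 and 8 months, whereas Ndufaf3 had -0.05, -0.02 and -0.55.

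Whether the effect of genotype differed between 8 and 3 months was tested as an interaction, and 0 members passed, against 1.04% of all tested probe sets, 0.326% more negative at 8 months and 0.718% more positive. At an unadjusted p under 0.05, 17 members had a more negative effect at 8 months (10.4%, against 8.01% of all tested probe sets) and 0 a more positive one (against 6.44% of all), and the smallest adjusted p was 0.0612. Without the third knockout array at 8 months 5 members passed. The larger count at 8 months than at 3 months is thus not shown to be a difference between the ages for any 1 member in the fit of all arrays. Within the knockout, 6 members were lower at 8 than at 3 months, against 5.62% of all tested probe sets called, 2.72% lower and 2.9% higher. Within the wild type 0 passed in limma, against 0.0296% of all, 0.0074% lower and 0.0222% higher, and 7 members had an unadjusted p under 0.05, all higher (4.29%, against 3.45% of all). The comparison within the knockout shares the knockout arrays of 8 and 3 months with the comparisons of the genotypes at those ages, and that within the wild type shares the wild-type arrays of both ages with them.

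The members that were lower at 8 than at 3 months in the knockout were Ndufs4 on 1418117_at (-0.55), Ndufaf2 (-0.44), Uqcr10 on both probe sets that fell (-0.38 and -0.31), Ndufaf3 (-0.35) and Uqcrh on 1452133_at (-0.27). Ndufs4, an accessory subunit near the NADH-oxidising site, had signals of 118, 155 and 181 in the knockout at 8 months and 212, 223 and 239 in the knockout at 3 months. In the wild type it had 187, 195 and 169 at 8 months and 197, 185 and 210 at 3 months, which overlapped. The brighter probe set of Ndufs4, 1448959_at, was not among the 6. This count was 0 without the second knockout array at 8 months, 19 without the third, and 1 without the first knockout array at 8 months or without any 1 of the 3 knockout arrays at 3 months.

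Without a model, 4 members had all 9 knockout arrays below all 9 wild-type arrays, 2.45% of those tested, against 0.377% of all tested probe sets. These were Uqcr10 on 1434340_at, Atp5j2 on 1435395_s_at and 1416269_at, and Ndufb2 on 1448483_a_at. Another tested probe set of Atp5j2, 1443495_at, was not among them. None had all knockout arrays above, against 1.13% of all. Within 8 months 61 members had the knockout arrays below (37.4%, against 14.3% of all) and 2 above (1.23%, against 11.7%). At 5 months 36 members were below (22.1%, against 10.1%) and 6 above (3.68%, against 10.2%), and at 3 months 25 were below (15.3%, against 8.61%) and 9 above (5.52%, against 9.83%).

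**Figure D5:**
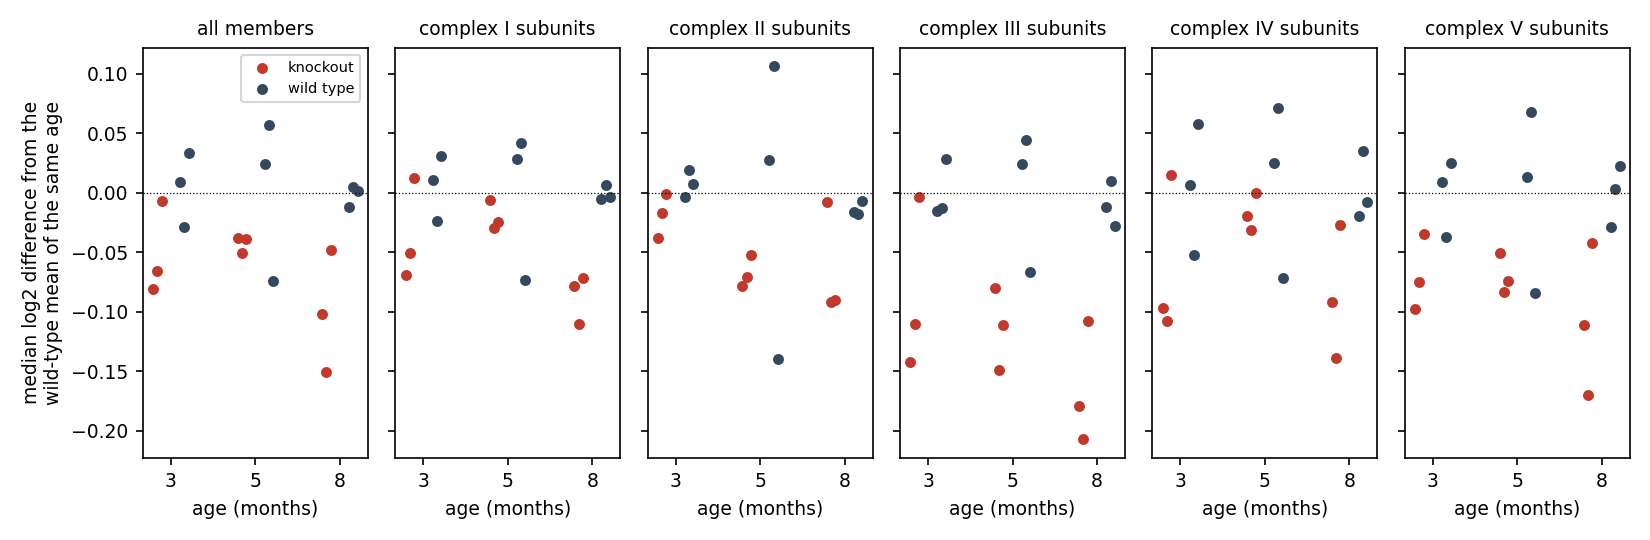
Median over the tested members, and over the subunits of each complex, of the log2 difference of each array from the wild-type mean of the same age, by age in months, knockout left of wild type. At 8 months the knockout arrays lie at -0.102, -0.151 and -0.048 over all members and at -0.179, -0.207 and -0.108 in complex III.

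Cell type markers, on 1 probe set per gene, moved with genotype as well. Over all tested probe sets 6.02% were lower and 6.62% higher over the ages, and with 1 probe set per gene 7.3% and 8.89%. Of 13 neuron markers 3 were lower over the ages and 0 higher, with a median of -0.10 over the ages and -0.15 at 8 months, and their summed signal at 8 months was 38700 to 44700 on knockout arrays and 45100 to 45900 on wild-type arrays. All 8 astrocyte markers were higher, with a median of 0.36 and sums at 8 months of 19400 to 24700 on knockout arrays and 11900 to 12500 on wild-type arrays. Of 9 microglia and macrophage markers 7 were higher, with a median of 1.23 and sums at 8 months of 5150 to 9390 on knockout arrays and 3330 to 3520 on wild-type arrays. The 6 oligodendrocyte markers did not pass over the ages. The actin control's ratio of 5′ to 3′ signal, a measure of RNA quality, was 0.507 to 0.542 on knockout arrays and 0.480 to 0.547 on wild-type arrays at 3 months, and 0.389 to 0.473 on knockout arrays and 0.412 to 0.499 on wild-type arrays at 5 months. At 8 months it was 0.432 to 0.482 on knockout arrays and 0.501 to 0.525 on wild-type arrays, so that the genotypes did not overlap at that age. The ratio was also lower at 8 than at 3 months within the knockout. The same ratio of the Gapdh control at 8 months was 1.22 to 1.246 on knockout arrays and 1.258 to 1.349 on wild-type arrays. Both ratios overlapped between the genotypes at 3 and 5 months. The part of cell makeup, RNA quality or the third knockout array in the decreases of the members was not tested. In bulk tissue, fewer cells of a type and less RNA per cell cannot be told apart.

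Genes around the chain that the symbol rule leaves out were counted on 1 probe set per gene. For comparison, 6.02% of all tested probe sets were lower over the ages and 6.62% higher. With 1 probe set per gene and p-values adjusted over genes, these shares were 7.3% and 8.89%. Of the subunits encoded in mitochondrial DNA 1 gene was measured, and it did not pass (-0.05 over the ages). Among 16 genes of cytochromes and electron carriers, Cycs, cytochrome c, fell by 0.17 (-0.17 ± 0.05, adjusted p = 0.0238) and Coq7, which makes ubiquinone, rose (0.20 ± 0.06, adjusted p = 0.0212). Of 34 further assembly factors 4 fell and 0 rose, with a median of -0.08: Cox11, which inserts copper into complex IV, at -0.24 ± 0.05 (adjusted p = 0.00224), Uqcc2, Higd1a and Higd2a. In the citric acid cycle 6 of 17 genes fell and 0 rose, with a median of -0.06, led by Idh3a, a subunit of isocitrate dehydrogenase, at -0.21 ± 0.04 (adjusted p = 0.000777).

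Among 26 mitochondrial carriers and outer membrane genes 2 fell, the import pore Tomm40 (-0.22 ± 0.06, adjusted p = 0.021) and the fission protein Dnm1l (-0.13 ± 0.04, adjusted p = 0.02), and the median was -0.02. Of 19 genes of mitochondrial biogenesis and DNA maintenance 1 fell, the DNA polymerase Polg (-0.23 ± 0.07, adjusted p = 0.0239). Both counts, 2 of 26 and 1 of 19, were near the share over all tested probe sets, 6.02% lower. The regulators Ppargc1a (-0.12 ± 0.07, adjusted p = 0.271), Nrf1 (-0.12 ± 0.14, adjusted p = 0.627), Gabpa (0.13 ± 0.07, adjusted p = 0.279) and Tfam (-0.05 ± 0.06, adjusted p = 0.675) did not pass. In glycolysis, which makes ATP outside the mitochondrion, 3 of 13 genes fell and 0 rose: Ldha at -0.20 ± 0.04 (adjusted p = 0.00264), Pfkl at -0.17 ± 0.04 (adjusted p = 0.01) and Tpi1 at -0.13 ± 0.04 (adjusted p = 0.0208).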

How the data were processed

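RNA of 18 Ppt1 knockout and wild-type samples was measured on Affymetrix mouse arrays, 3 per group of genotype and age. The authors deposited linear probe set intensities. Their software and scaling method are not given in the sources that were used. Each array's mean intensity was 150 after its lowest and highest 2% of probe sets were set aside, so a common scaling had been applied before deposit. Groups and sex were taken from the labels, and replicates were numbered in the order of the sample records.

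Intensities were used as log2(signal + 16). A log2 difference is on that scale and understates what dim genes do. Controls (64 probe sets) and the 40% with the lowest mean were not tested, which left 27022. A model of the 6 groups with an additive sex term was fitted to all 18 arrays in limma 3.58.1 (eBayes with a variance trend, two-sided) in R 4.3.3, and p-values were adjusted by Benjamini-Hochberg over all tested probe sets at 0.05. Errors of log2 differences are standard errors of the fit. Background was the 95th percentile of 27 bacterial control probe sets per array. The number of arrays limits the precision.

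Genes were named from the platform annotation, and all members matched RefSeq GRCm38.p6 by Entrez identifier. Named were up to 12 members with the largest change in each direction and comparison, the brightest member of each complex, tissue-specific isoforms, catalytic and core subunits, and up to 3 genes of each other list with the smallest p. The remaining members that fell, Ndufa4l2, probe sets that differ from others of their gene, Higd2a and the regulators that did not pass were named after their values were seen. The grouping into accessory and core subunits within a complex was drawn after the values were seen, except for the core list. Members and lists were chosen with earlier results of these data known. Alternatives were other normalizations, pseudocounts, filters and variance models, no sex term, only the groups compared, 1 probe set per gene, and arrays left out.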

Additional observations from a re-analysis of the deposited data

How the results depend on the processing

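Over the ages, the 30 decreases became 18 with a variance model without trend (11.0% of members, against 9.78% of all tested, 4.14% lower) and 17 with 1 probe set per gene (18.9%, against 16.2% of all, 7.3% lower). Leaving out single arrays gave 21 (without the second knockout array at 8 months) to 45 (without the third), with 1 higher and 29 lower members without the second wild-type array at 3 months and 0 higher in the others. At 3 months the count of 0 became 1 with the filter of the lowest 60%, without the sex term, with 1 probe set per gene or without the first and second knockout arrays at 8 months, 3 with only the groups compared (2 lower, 1 higher), and 0 to 1 with single arrays left out (1 without any 1 of the knockout arrays at 8 months). At 5 months the count of 3 became 1 without the trend, 6 without those arrays together, and 0 to 6 with single arrays left out. At 8 months the count of 22 became 13 with only the groups compared (7.98%, against 4.39% of all, 1.81% lower). It became 11 without the trend (6.75%, against 8.3%, 3.81% lower) and 12 with 1 probe set per gene (13.3%, against 14.1%, 6.61% lower). With single arrays left out it was 6 to 37. No count is given without the first and second knockout arrays of that age together, as 1 array would then stand for the group. On that array alone the median log2 difference over the members from the wild-type mean of its age was -0.048. For the same reason no such count is given for 8 against 3 months in the knockout. For the interaction the count of 0 became 1 with quantile normalization, with the filter of the lowest 60% and with 1 probe set per gene, and 0 to 5 with single arrays left out. Within the knockout, 8 against 3 months, the count of 6 became 11 with quantile normalization and 0 with only the groups compared. It became 2 without the trend, 2 with 1 probe set per gene, and 0 to 19 with single arrays left out. The wild-type count of 0 stayed at 0 in all settings run. Quantile normalization moved the median of complex III at 3 months to -0.022, against -0.066, and that of complex IV within the knockout to -0.077, against 0.01; the cause was not tested.

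Of 33 named results, 11 kept their call in every setting run, all of them differences over the ages, and none changed direction. Calls at 8 months were lost in 1 setting (Uqcr10, Ndufaf3 and Ndufc1) to 18 (Sdhaf2), those at 5 months in 1 (Atp5o) to 6, and those of 8 against 3 months in the knockout in 4 (Ndufaf2) to 12 (Uqcrh). No paired analysis was possible because the labels number the samples singly, with no number shared between groups. The counts for the other lists under these settings were chosen after seeing the data.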
